A study of Mus musculus with 4 samples.

Results

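RNA immunoprecipitation in mouse cells carrying Flag-tagged Lin28b gave 13478 genes listed for both constructs. Of these, 146 were annotated antisense noncoding transcripts that met a low minimum level in both input libraries. They were the genes of the authors' antisense class whose level reached 0.5 in each of the 2 inputs, wild type and mutant. Gas5, Tsix and genes named Snhg were left out, which removed 2 genes above that minimum. The class held 491 genes in the mutant table, of which 394 were also in the wild-type table and 392 were left after the exclusions by name. The 97 other genes of the class were lost because the wild-type table does not list them. The input levels thus chose the members, and they are also the denominator of every recovery ratio given here, so the ratios are a description of the members and carry no test.

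The series held 4 libraries from mouse pancreatic cancer-associated fibroblasts (CAFs, labelled 15376CAFs), 1 library in each of 4 groups. The groups were the anti-Flag immunoprecipitate (IP) of cells overexpressing Flag-tagged wild-type Lin28b (WT), its input RNA, the anti-Flag IP of cells overexpressing a Flag-tagged Lin28b mutant that lacks RNA binding (MU), and its input RNA. Both cell populations thus carried an overexpressed, tagged Lin28b, and the labels give neither the substitutions of the mutant nor the promoter behind the constructs. With 1 library a group no difference has a replicate check, no p-value was computed and each value describes single libraries.

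Antisense transcripts are long noncoding RNAs read from the strand opposite to another gene, often starting near the promoter of that gene or running across part of it. Some act on the gene they overlap, and Airn, which silences the maternally expressed Igf2r on the paternal chromosome, is the textbook case. Lin28b is an RNA-binding protein known for binding let-7 precursors and blocking their maturation, and it also binds many mRNAs. In an RNA immunoprecipitation the level of an RNA in the IP, set against its level in the input, shows how well it was recovered with the tagged protein, and the mutant serves as the control.

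The Lin28b gene itself stood at 8.99 in the WT IP and 13.8 in the WT input, and at 36.7 in the MU IP and 30.01 in the MU input. These levels, like all levels below, were read as FPKM (fragments per kilobase of transcript, scaled to library size), since the tables name no unit. Of 12 fibroblast markers, 5 were in both tables and 2 had both inputs at 1 or above, while 6 of 8 epithelial markers passed the same level. Col1a1, the collagen of fibroblasts, stood at 0.722 in the WT input and 0.404 in the MU input, against 601 and 494 for the keratin gene Krt8. Vim, which codes for the mesenchymal filament vimentin, was as high as Krt8, at 607 in the WT input and 547 in the MU input. The markers of the fibroblast label were thus mixed, and the cells are called by their label here. The part of this marker pattern in the results below was not tested.

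The members were weakly expressed and mostly known by provisional names. Of the 146, 85 had a Gm name, 40 had a Rik name and 17 were annotated as antisense or as the opposite strand of a named gene. RefSeq symbols matched 91, each at an overlapping place in GRCm38.p6, and RefSeq lists 90 of these as long noncoding RNA and 1 as antisense RNA. The median level was 0.708 in the WT IP, 1.30 in the WT input, 0.395 in the MU IP and 1.21 in the MU input. The highest levels were 29.1, 23.6, 30.7 and 25.9 in the same libraries, all from Brip1os, and 133 members lay under 5 in both inputs. The median span, from annotated start to end with introns included, was 4981 bases, with a shortest of 497 (Rab26os) and a longest of 189599. Input levels lay within 2-fold of each other in 124 members and ranked the members alike in part (Spearman rho 0.69 across 146 transcripts, which share libraries and annotation). Where an input level differed between the constructs, fewer cells that express the transcript and less of it per cell cannot be told apart.

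As a group the antisense transcripts were less abundant in the IPs than in the inputs, and more so with the mutant than with wild-type Lin28b. The median log2 ratio of IP over input was −0.72 in WT (quartiles −1.40 and −0.18) and −1.71 in MU (quartiles −2.67 and −0.74). Across all 13478 genes the medians were −0.28 in WT and −0.59 in MU, and across 10301 protein-coding genes that met the same input minimum they were −0.23 in WT and −0.49 in MU. The members' medians were thus below those of coding genes in both constructs, by more in MU. Each ratio was taken as log2 of (IP level + 0.01) over (input level + 0.01), the authors' own formula.

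A call here means an IP level at least 2-fold above or below the input. In WT, 58 members (39.7%) were lower in the IP, against 21.7% of all genes and 17.7% of the coding genes, and 3 members (2.05%) were higher, against 7.74% and 6.01%. In MU, 99 members (67.8%) were lower, against 37.1% and 32%, and 4 (2.74%) were higher, against 5.99% and 5.15%. The rule used these inputs, so nothing is read from the shares. With a pseudocount of 1 in place of 0.01, near the members' own levels, 17 members were lower in WT and 34 in MU. The shares over all genes at that pseudocount were not computed, so nothing is read from these 2 counts. In all 50 members (34.2%) were lower in both IPs, against 15.7% of all genes and 13.1% of the coding genes. A further 8 were lower in the WT IP alone and 49 in the MU IP alone. The matching shares over all genes were not computed, so nothing is read from these counts. None (0%) was higher in both, against 1.85% of all genes and 1.56% of the coding genes.

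The WT ratio exceeded the MU ratio in 107 of 146 members (73.3%), against 63.2% of all genes and 62.4% of the coding genes. The median difference, WT minus MU, was 0.68 on the log2 scale, against 0.32 for all genes. For the members it was 0.28 with a pseudocount of 1 and 0.37 with each construct centred on the median of all genes. The same settings were not computed for the difference over all genes, so these values are not to be set against the 0.32. The difference was 1 or more in 61 members (41.8%), against 26.1% of all genes and 21.1% of the coding genes, and −1 or less in 13 (8.9%), against 7.37% and 4.2%. The 2 ratios ranked the members only loosely alike, with a Spearman rho of 0.39 across 146 transcripts that share the same libraries.

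**Figure D1:**
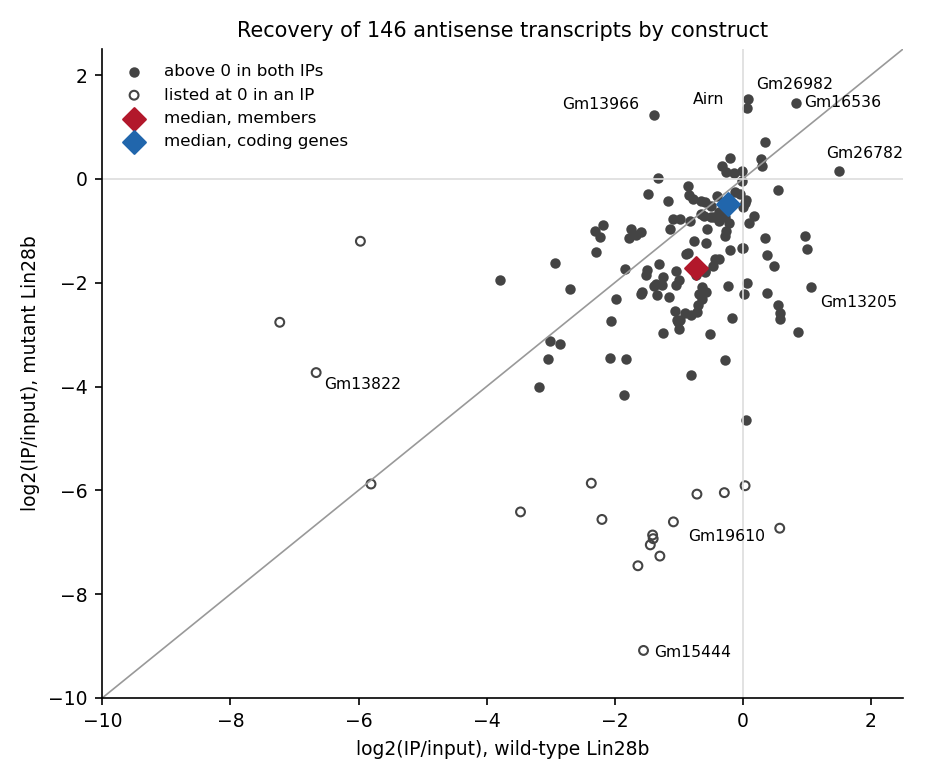
Each point is 1 of the 146 antisense transcripts, with its log2 ratio of IP over input for wild-type Lin28b on the x axis and for mutant Lin28b on the y axis; open points were listed at 0 in an IP, so their place depends on the 0.01 added to each level. Diamonds mark the medians of the members (−0.72 in WT and −1.71 in MU) and of 10301 coding genes (−0.23 in WT and −0.49 in MU), and 107 points lie below the diagonal of equal ratios.

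Other noncoding classes with both inputs at 0.5 or above had ratios on the same side of 0. The median was −0.46 in WT and −1.42 in MU for 175 lincRNAs, which lie between genes, and −0.46 in WT and −1.44 in MU for 117 processed transcripts. The 36 transcripts of the bidirectional promoter class had −0.91 in WT and −1.66 in MU, close to the antisense members. The 397 processed pseudogenes were lower still, at −1.11 in WT and −2.51 in MU. The 18 sense intronic transcripts had −0.21 in WT and −0.86 in MU, and the 4 sense overlapping ones −0.24 in WT and −0.55 in MU. In WT the antisense median thus lay above those of the bidirectional promoter class and the processed pseudogenes, and below the others. In MU it was below that of each of these classes except the processed pseudogenes.

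Among coding genes the ratios were lowest in the lowest class of level and at short spans, so the members were set against coding genes class by class. In the MU IP the members had a lower median than coding genes in each class of mean input level: −1.68 for 50 members against −0.65 for 175 coding genes at 0.5 to under 1, −1.75 for 57 against −0.52 for 462 at 1 to under 2, and −1.74 for 33 against −0.42 for 1363 at 2 to under 5. The 6 members at 5 or above had −0.91, against −0.50 for 8301 coding genes. In the WT IP the gap was small in the lowest class, with −0.61 for members against −0.52 for coding genes, and wider at 2 to under 5, with −0.88 against −0.21.

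By span the picture differed. Among genes under 2 kb, 34 members had medians of −1.13 in WT and −1.98 in MU, above the −1.35 in WT and −2.46 in MU of 259 coding genes. From 2 to under 5 kb, 39 members had −0.65 in WT and −1.67 in MU, against −0.91 in WT and −1.73 in MU for 823 coding genes. From 5 to under 20 kb the order turned, with −0.82 in WT and −1.34 in MU for 48 members and −0.50 in WT and −0.91 in MU for 3461 coding genes. The widest gap was at 20 kb or more, where 25 members had −0.45 in WT and −2.21 in MU, against 0.01 in WT and −0.08 in MU for 5758 coding genes. Span here includes introns, and transcript lengths were not analysed.

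**Figure D2:**
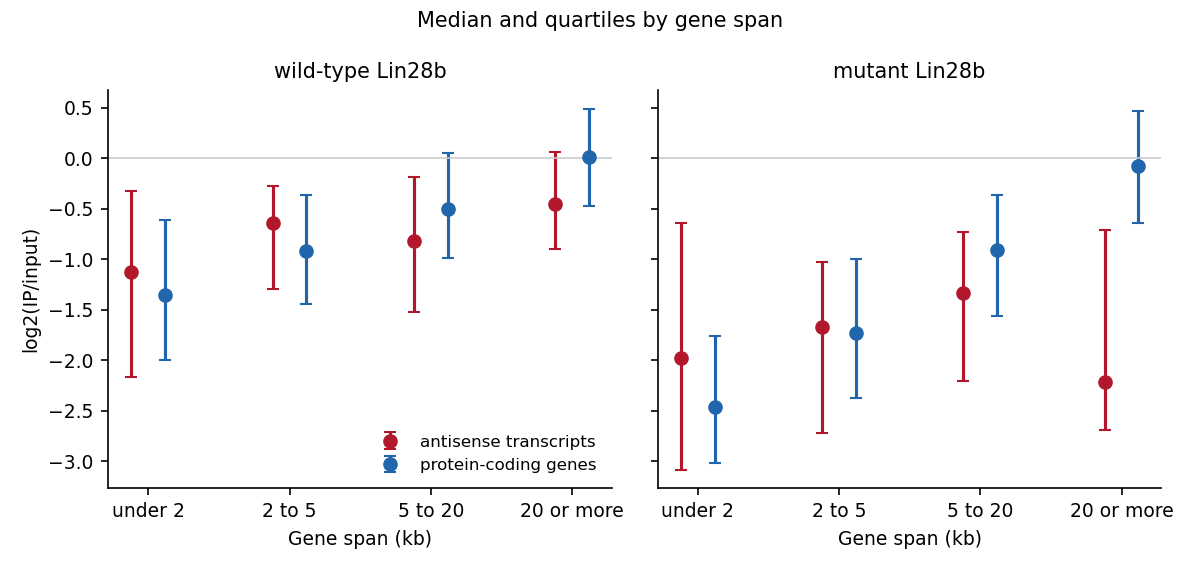
Points show the median log2 ratio of IP over input and bars the lower and upper quartiles over genes in 4 classes of gene span (x axis, kb), for the antisense transcripts and for protein-coding genes with both inputs at 0.5 or above, in the wild-type and mutant panels. Medians of coding genes were higher in each longer class in both panels, while the 25 antisense transcripts of 20 kb or more had the lowest median of the members in the mutant panel (−2.21).

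The 3 members called higher in the WT IP were Gm26782, Gm13205 and 3110045C21Rik. Gm26782 (chr14:50870324-50880603, plus strand, GRCm38) had a level of 11.7 in the WT IP and 4.13 in the WT input, and 1.81 in the MU IP and 1.62 in the MU input. The WT IP was its highest library, 2.83-fold above its input, while the MU libraries differed 1.11-fold. It starts head to head with Tep1, which codes for a telomerase-associated protein, and shares 2.31% of its span with it. Tep1 had 7.97 in the WT IP and 9.25 in the WT input, so the WT log2 ratio was 1.50 for Gm26782 and −0.21 for Tep1.

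Gm26782 also carried 3 WT peaks on its own strand and no MU peak. They lay 6.51 to 9.32 kb from its 5′ end, covered 2170 bases and had the authors' fold between 2.97 and 7.18. The RefSeq start of the gene is 28 bases from the start in the tables, and the 300 bases around it are shown because this is the member with the highest WT ratio, with the 50 transcribed bases in capitals (RefSeq, GRCm38.p6, chr14:50870046-50870345, plus strand):
Gm26782: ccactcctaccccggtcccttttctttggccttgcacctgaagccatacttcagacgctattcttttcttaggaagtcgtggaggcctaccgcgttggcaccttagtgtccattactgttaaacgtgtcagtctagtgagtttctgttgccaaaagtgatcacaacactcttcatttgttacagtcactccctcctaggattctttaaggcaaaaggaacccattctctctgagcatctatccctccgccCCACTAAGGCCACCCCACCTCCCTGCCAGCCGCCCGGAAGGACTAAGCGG
No peak of either list lies in this start, so the sequence shows where the RNA begins and not where it was recovered.

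Gm13205, with a span of 1423 bases and no coding gene on the other strand in the table, had 4.86 in the WT IP and 2.30 in the WT input, and 1.43 in the MU IP and 6.07 in the MU input. It was thus 2.10-fold higher than input in WT and 4.21-fold lower in MU, with the MU input as its highest library. 3110045C21Rik had 1.47 and 0.728 in the WT IP and input, and 0.372 and 0.963 in the MU IP and input. Its 2-fold excess in WT was at the edge of the call (2.002-fold). Neither Gm13205 nor 3110045C21Rik had a peak on its strand. The partner of 3110045C21Rik is Ddr2, a receptor tyrosine kinase for collagen that meets it tail to tail. Ddr2 was near 0 with wild-type Lin28b (0.0941 in the WT IP, 0.139 in the WT input) but not with the mutant (3.63 in the MU IP, 3.22 in the MU input).

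Just under the 2-fold line in WT lay 2810402E24Rik, head to head with Usp54, of the ubiquitin-specific protease family. It had 3.82 in the WT IP and 1.95 in the WT input, and 0.710 in the MU IP and 1.53 in the MU input, so it was above its input in WT alone. It carried 2 WT peaks on its strand, both with the authors' fold of 4.73, within 2.56 kb of its 5′ end, and no MU peak. Gm26782 and 2810402E24Rik were thus the members in which a WT ratio among the 4 highest came together with a WT peak. The other members among the 8 highest WT ratios were 2510046G10Rik (0.86), Gm16536 (0.82), Gm19610 (0.58) and A830082K12Rik (0.58), none with a WT peak.

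**Figure D3:**
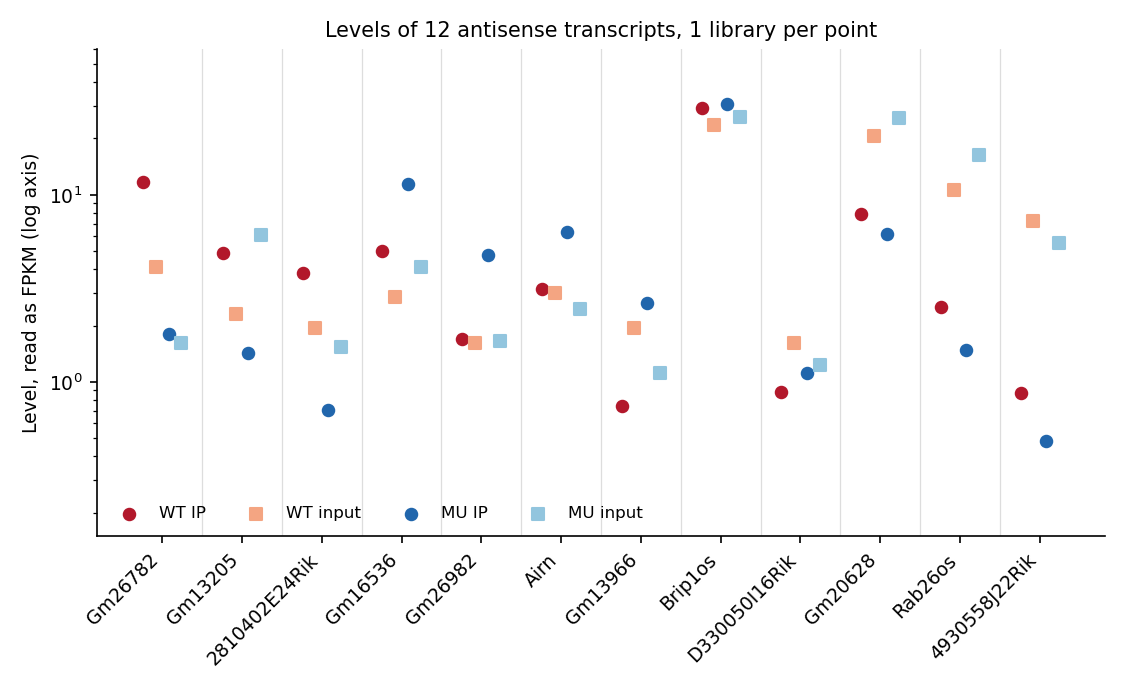
Each point is the level in 1 library (log axis, read as FPKM) for 12 antisense transcripts, with the WT IP, WT input, MU IP and MU input side by side. Gm26782, Gm13205 and 2810402E24Rik have their WT IP above the WT input (11.7 against 4.13 for Gm26782), Gm16536, Gm26982, Airn and Gm13966 have their MU IP above the MU input (11.4 against 4.11 for Gm16536), and Gm20628, Rab26os and 4930558J22Rik are lower in both IPs.

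The 4 members called higher in the MU IP were Gm26982, Gm16536, Airn and Gm13966. Gm26982, with no coding gene on the other strand, had 4.78 in the MU IP and 1.64 in the MU input, and 1.69 in the WT IP and 1.61 in the WT input. Its 2 MU peaks had summits 161 and 625 bases from its 5′ end, with the authors' fold of 4.79 and 3.79, and it had no WT peak. The stronger peak (chr6:113714603-113715218) begins before the annotated start of Gm26982 at 113714971. Gm16536 lies inside Bace1, the gene of the beta-secretase that cuts the amyloid precursor. It had 11.4 and 4.11 in the MU IP and input, and 5.03 and 2.84 in the WT IP and input. It was thus above its input with both constructs, 1.77-fold in WT and 2.77-fold in MU, and carried 2 MU peaks (the authors' fold 2.95 and 2.88). Bace1 had log2 ratios of −0.23 in WT and 0.43 in MU. Gm13966, inside the formin gene Fmn1, had 2.63 and 1.11 in the MU IP and input but 0.742 and 1.95 in the WT IP and input, and no peak on its strand.

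Airn (chr17:12741311-12860136, plus strand) was the textbook antisense RNA among the members, and the one with the most peaks. It had 3.12 in the WT IP and 2.98 in the WT input, and 6.33 in the MU IP and 2.45 in the MU input. The MU IP was its highest library, 2.58-fold above input, while the WT libraries were nearly equal. No WT peak and 37 of the 46 MU peaks on the strand of a member lay on Airn. Across all genes of both tables, 54 genes, Airn included, had at least as many MU peaks.

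The Airn peaks were spread over the 5′ part of the gene. Their authors' fold ranged between 3.01 and 9.04, with a median of 5.36, and together they covered 19292 of its 118826 bases. The nearest summit was 191 bases and the farthest 82.8 kb from the 5′ end, at 69.7% of the span, and 29 of 37 were in the first 35 kb. The highest peak, at chr17:12764935-12765354, had its summit 23898 bases from the 5′ end. Airn runs head to head into Igf2r, which codes for the receptor that clears insulin-like growth factor 2, and 24 of the 37 peaks lay in the 28.4 kb that the genes share.

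Igf2r was also higher in the MU IP, at 54.0 against 32.6 in the MU input, and at 17.2 in the WT IP against 21.3 in the WT input. It had no WT peak and 17 MU peaks on its own strand, none of them within the span of Airn. The peaks of Airn were thus called on the plus strand over a stretch where no minus-strand peak was called. At the level of genes, the use of strand in counting reads is not given in the sources used, so reads of Airn and Igf2r, as of each pair below, cannot be told apart there.

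**Figure D4:**
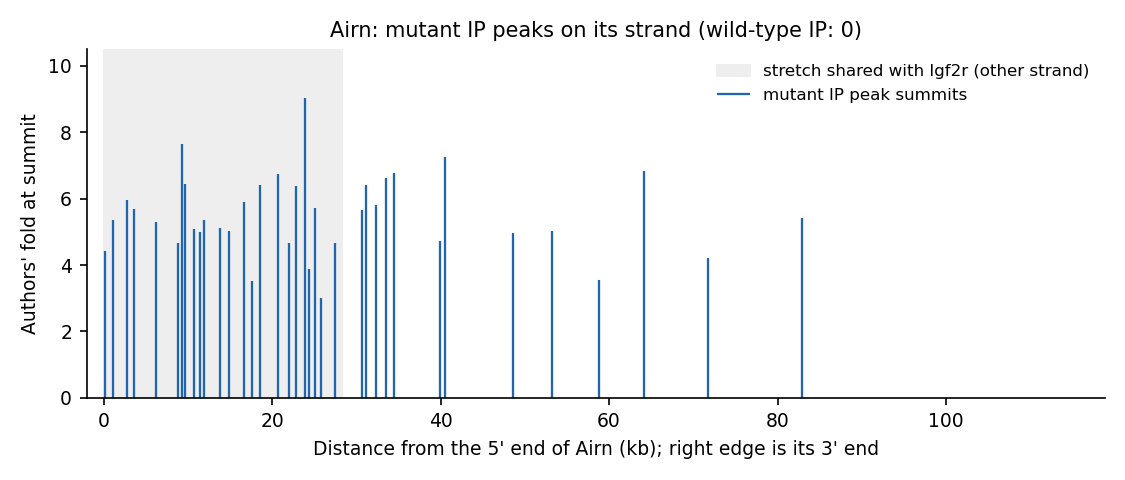
Each line is the summit of 1 mutant IP peak on the strand of Airn, at its distance from the 5′ end (x axis, kb, ending at the 3′ end) with the authors' fold as its height; the grey band is the 28.4 kb shared with Igf2r. The wild-type list holds no peak here, and the 37 mutant summits end at 82.8 kb.

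The first Airn peak begins within 50 bases of the start of the RNA. The 300 bases around the start are shown for this reason, with the 9 bases inside the peak in capitals (RefSeq, GRCm38.p6, chr17:12741061-12741360, plus strand):
Airn: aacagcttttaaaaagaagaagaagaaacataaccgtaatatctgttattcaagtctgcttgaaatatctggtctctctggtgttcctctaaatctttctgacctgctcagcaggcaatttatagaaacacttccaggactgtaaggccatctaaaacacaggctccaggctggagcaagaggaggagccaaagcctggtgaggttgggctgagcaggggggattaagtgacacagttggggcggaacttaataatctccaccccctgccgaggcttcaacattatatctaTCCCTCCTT
The peak itself runs to chr17:12741736, and the authors' fold there was 4.43.

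D330050I16Rik (chr19:5388336-5389601, plus strand) was 1 of 2 members with a peak in both lists, and held the strongest member peak of the MU list. It starts head to head with Sart1, a splicing factor gene. The WT peak (chr19:5388345-5388563) had the authors' fold of 5.31 and the MU peak (chr19:5388344-5388601) of 9.84, with summits 138 and 135 bases from its 5′ end. At the gene level it was not above input, with 0.887 in the WT IP and 1.62 in the WT input, and 1.11 in the MU IP and 1.23 in the MU input. The peak and the level of the whole gene thus gave different pictures. Sart1 had log2 ratios of 0.29 in WT and 0.64 in MU. An MU peak on the strand of Sart1 lay within the span of D330050I16Rik, which Sart1 overlaps in part. The start is shown because the shared peak begins there, with the 42 bases inside the MU peak in capitals (RefSeq, GRCm38.p6, chr19:5388086-5388385, plus strand):
D330050I16Rik: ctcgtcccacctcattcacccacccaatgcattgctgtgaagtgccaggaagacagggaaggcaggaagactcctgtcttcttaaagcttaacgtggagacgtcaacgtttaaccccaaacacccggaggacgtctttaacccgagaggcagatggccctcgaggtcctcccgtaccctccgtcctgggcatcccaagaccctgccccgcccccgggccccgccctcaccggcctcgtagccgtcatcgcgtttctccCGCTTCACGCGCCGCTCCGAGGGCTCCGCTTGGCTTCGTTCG
The window holds 26 CG dinucleotides, against 3 in that of Airn and 10 in that of Gm26782.

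Brip1os, the most abundant member, was the other with peaks in both lists. It had 29.1 in the WT IP and 23.6 in the WT input, and 30.7 in the MU IP and 25.9 in the MU input, so the IP was 1.23-fold above its input in WT and 1.18-fold in MU. It had 2 peaks in each list, which overlapped between the lists and lay 6.70 to 7.98 kb from its 5′ end, with the authors' fold between 1.33 and 1.51. Its span of 103074 bases covers Ints2, of the Integrator complex, and overlaps Med13, of the Mediator complex, on the other strand. The summits of 19 WT and 20 MU peaks on that other strand lay within its span, and Med13 as a whole had 20 WT and 28 MU peaks. Med13 had log2 ratios of 1.22 in WT and 1.67 in MU, against 0.30 in WT and 0.24 in MU for Brip1os.

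Among the other abundant members, 9130221H12Rik and 4933431E20Rik were above input in MU without a call. 9130221H12Rik, inside the kinase gene Gsk3a, had 8.01 and 6.29 in the WT IP and input and 8.74 and 5.30 in the MU IP and input, with no peak on its strand. Gsk3a had log2 ratios of 0.01 in WT and −1.46 in MU, so member and partner parted in MU. 4933431E20Rik had 6.98 in the WT IP and 8.03 in the WT input, 11.1 in the MU IP and 8.43 in the MU input, and 1 MU peak with the authors' fold of 2.83. The other abundant members were lower in both IPs. Gm20628 had 7.90 in the WT IP and 20.6 in the WT input, and 6.15 in the MU IP and 25.8 in the MU input. Rab26os, the shortest member, had 2.52 in the WT IP and 10.6 in the WT input, and 1.48 in the MU IP and 16.3 in the MU input, so its IP was 4.21-fold lower in WT and 10.99-fold lower in MU.

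At the low end in WT, 4 members were listed at 0 in the WT IP (2.74%), against 1.45% of all genes and 0.068% of the coding genes, so no fold is given for them. They were C920021L13Rik, Gm13822, Gm44702 and Gm44287, with WT input levels between 0.549 and 1.49. Gm13822 lies head to head with Oasl1, an interferon-induced gene, and had 0.253 in the MU IP and 3.48 in the MU input. Gm44702, inside the splicing factor gene Hnrnpl, had 0.248 in the MU IP and 0.583 in the MU input. The lowest WT ratios above 0 belonged to Gm19412 (0.107 in the WT IP, 1.60 in its input), which lies inside the tapasin gene Tapbp, then Etaa1os (11.1-fold lower than input), Gm42067 (9.03-fold) and 4930558J22Rik (8.20-fold).

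The MU IP was listed at 0 for 15 members (10.3%), against 3.25% of all genes and 0.233% of the coding genes. Gm44287, inside the chromatin remodeller gene Ino80b, was the 1 member listed at 0 in both IPs. Gm15444, head to head with the histone gene H2ac21, stands out by its input, with 5.43 in the MU input and 0 in the MU IP. It had 1.40 in the WT IP against 4.11 in the WT input. Gm15444 is also 1 of 3 members that overlap a coding gene on their own strand, and the part of that gene in its levels was not tested. Gm19610, head to head with Ereg, which codes for the growth factor epiregulin, had 1.34 in the WT IP and 0.893 in the WT input, and 0 in the MU IP against 1.05 in the MU input. Ereg did not share this, with log2 ratios of 1.22 in WT and 1.01 in MU. Gm9902, inside the phosphodiesterase gene Pde9a, had 1.09 and 1.06 in the WT IP and input, and 0 in the MU IP against 0.592 in the MU input. Hk1os and Rap1gapos, which lie inside the hexokinase gene Hk1 and inside Rap1gap, were listed at 0 in the MU IP too, with MU inputs of 1.21 and 1.74.

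Of these 15 members, 6 have no coding gene on the other strand, and each of the 6 starts within 1 kb of a coding gene that runs away from it. They were Gm13523, Gm4285, 2900009J06Rik, Med9os, Gm11767 and Etaa1os. Their starts lay between 64 bases (Med9os and Med9, of the Mediator complex) and 129 bases (Gm4285 and Tpt1) from the coding start. In the WT IP their levels were between 0.156 and 0.878. Over all 146 members, 25 have no coding gene on the other strand, and 19 of these 25 were of this divergent kind. Nothing is therefore read from the 6. Members with an overlapped coding gene were left out of this count, though some of them also start close to a coding gene that runs away.

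For 121 members the tables held a coding gene overlapped on the other strand, for 19 of them more than 1, in which case the gene with the longest overlap was taken. Both genes were in both tables for 117 pairs. The partners were far more abundant, with a median input of 17.1 in WT and 18.8 in MU, and the member's input exceeded its partner's in 9 pairs in WT and 7 in MU. In the pairs the median log2 ratio was −0.69 for members and −0.39 for partners in WT, and −1.46 for members and −0.50 for partners in MU. The member was below its partner in 76 of 117 pairs in WT and 86 in MU. The median of member minus partner was −0.37 in WT and −0.93 in MU, and it was −1 or less in 33 pairs in WT and 57 in MU. With a pseudocount of 1 these medians were −0.011 in WT and −0.12 in MU, and with both inputs at 1 or above (58 pairs) −0.27 in WT and −0.46 in MU.

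Members followed their partners only weakly. The Spearman rho across 117 pairs was 0.32 in WT and 0.17 in MU for the log2 ratios, and 0.25 with each construct for the input levels. These points share libraries, and any reads of one strand counted for the other gene would be shared as well. Pairs in which the member was above its partner by 1 or more numbered 11 in WT and 10 in MU, among them Gm26782 and Tep1 in WT and 9130221H12Rik and Gsk3a in MU. Gm37305, head to head with the cyclin gene Ccnl1, was also among them in MU, with log2 ratios of 0.39 for the member and −1.81 for Ccnl1.

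**Figure D5:**
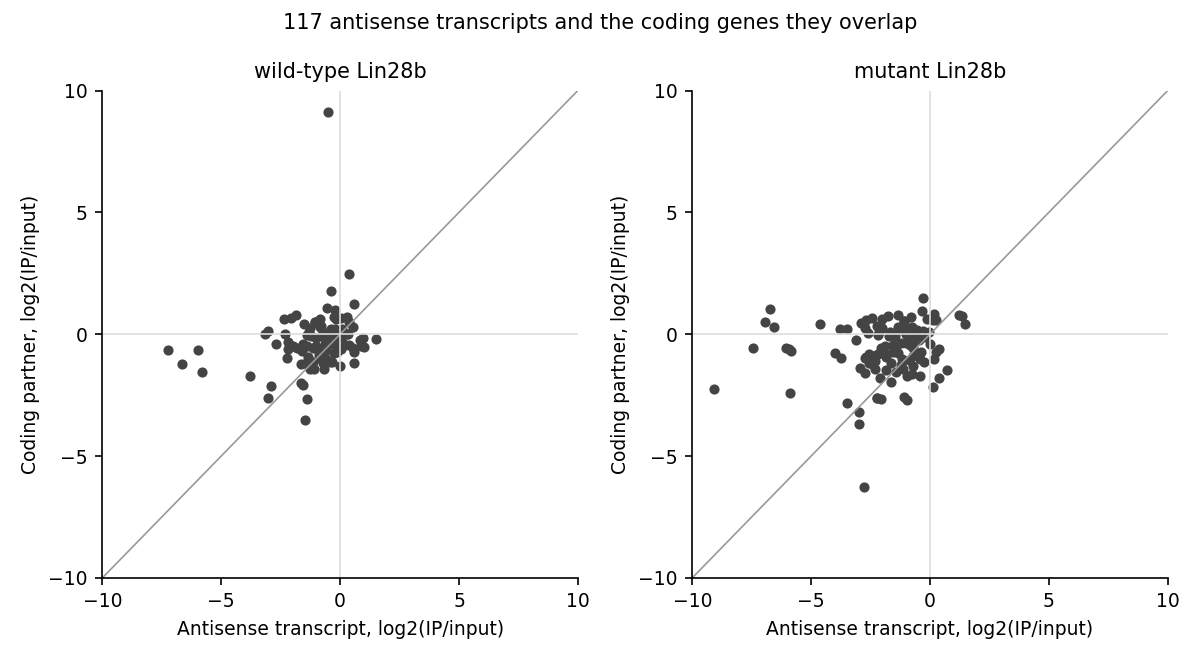
Each point is a pair of an antisense transcript (x axis) and the coding gene it overlaps most (y axis), by their log2 ratios of IP over input, in the wild-type and mutant panels; points above the diagonal have the member below its partner, 76 of 117 in the wild-type panel and 86 in the mutant panel. The high point at 9.11 on the y axis of the wild-type panel is H2ac18, whose WT input level was 0.00175.

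The medians differed between layouts, more in MU than in WT. The 50 members that run head to head with their partner had medians of −0.72 in WT and −1.50 in MU, and the 31 that lie inside the partner −0.80 in WT and −1.54 in MU. The 30 tail-to-tail members had the highest medians, −0.48 in WT and −1.05 in MU, and the 10 that contain their partner had −0.99 in WT and −2.38 in MU. The 25 members with no partner had −1.02 in WT and −2.07 in MU. An opposite coding start within 1 kb on either side was found for 83 members, with medians of −0.77 in WT and −1.84 in MU, against −0.64 in WT and −1.54 in MU for the other 63.

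The next members were picked by what the overlapped genes do, after their values were seen, and are a description. Of 5 members opposite replication-dependent histone genes, 4 were called lower in WT, against 39.7% of members and 21.7% of all genes, and 5 in MU, against 67.8% of members and 37.1% of all genes. Of the 5, 1 was listed at 0 in the MU IP and 4 lie on chromosome 3. 4930558J22Rik, which contains H4c2, had 0.877 and 7.26 in the WT IP and input and 0.484 and 5.49 in the MU IP and input. H4c2 was itself low in the IPs, with log2 ratios of −2.62 in WT and −2.84 in MU, against −3.04 in WT and −3.48 in MU for the member. The histone partners have near-identical copies, so their levels are uncertain, and the WT ratio of H2ac18, opposite Gm20633, rests on an input level of 0.00175.

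Several members lie opposite transcription factor or zinc finger protein genes. Of 16 grouped so, 7 were called lower in WT, against 39.7% of members and 21.7% of all genes. In MU 14 were called lower, against 67.8% of members and 37.1% of all genes. The WT ratio exceeded the MU ratio in 12, against 73.3% of members and 63.2% of all genes. Plut, opposite the pancreatic factor Pdx1, had 2.09 and 2.84 in the WT IP and input and 1.44 and 4.22 in the MU IP and input. It was thus below input with each construct. A830082K12Rik, opposite the nuclear receptor gene Nr2f1, differed, with 3.93 and 2.63 in the WT IP and input and 0.0834 and 0.596 in the MU IP and input.

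Other members lie opposite ubiquitin system genes. Of 6 grouped so, 1 was called lower in WT, against 39.7% of members and 21.7% of all genes. In MU 6 were called lower, against 67.8% of members and 37.1% of all genes. The WT ratio exceeded the MU ratio in 6, against 73.3% of members and 63.2% of all genes. Gm9725, opposite the deubiquitinase gene Usp38, had 0.671 and 0.644 in the WT IP and input and 0.0156 and 0.627 in the MU IP and input. Gm36266, inside the F-box gene Fbxo24, was not counted in that group. It had 0.441 and 0.532 in the WT IP and input and 1.01 and 0.919 in the MU IP and input. Its log2 ratio was thus −0.27 in WT and 0.13 in MU, the other way from the 6. With Gm36266 counted, the group would no longer be uniform in either count, so nothing is read from them. 4930539J05Rik lies opposite Ube2d3, a ubiquitin-conjugating enzyme gene whose level was 444 in the WT IP and 79.2 in the WT input. That excess was not seen in the member, at 1.49 in the WT IP and 1.14 in the WT input. The other imprinted pair beside Airn was Gnasas1 and Gnas, with log2 ratios of −0.56 in WT and −0.97 in MU for Gnasas1 and −0.30 in WT and −1.73 in MU for Gnas.

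The peak values did not choose the members, though the inputs that did may have served in calling the peaks, which no source used here states. The lists held few peaks on the strand of a member. A WT peak summit lay on the strand of 5 members (3.42%) and an MU summit on that of 7 (4.79%), 10 members in all. Of all genes, 25.1% had a WT peak and 18.6% an MU peak, and of the coding genes with the same input minimum 31.7% and 23.6%. The share also moved with level: at a mean input of 2 to under 5, 1 of 33 members (3.03%) had a WT peak and 2 (6.06%) an MU peak, against 20.2% and 14.8% of 1363 coding genes. At 0.5 to under 1 the shares were 2% in WT and 0% in MU of 50 members, against 4.57% and 2.29% of 175 coding genes, and at 1 to under 2 they were 3.51% and 5.26% of 57 members, against 11.9% and 7.58% of 462 coding genes. At 5 or above, 1 of 6 members (16.7%) had a WT peak, against 35.3% of 8301 coding genes, and 2 (33.3%) had an MU peak, against 26.4%. The members' shares were thus below those of coding genes of like level. The exception was MU peaks at 5 or above, where there were 6 members. Each of these member shares rests on 0 to 3 members with a peak. The classes match level and not span, and a summit counted anywhere in the span. The median span was 4.98 kb for members and 23.9 kb for the coding genes. The part of span and of the small counts in these gaps was not tested. In all the members held 9 of 11912 WT peaks and 46 of 15931 MU peaks.

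The remaining peaks on a member's strand were single. Gm42984, head to head with Tapt1, had a WT peak with the authors' fold of 5.11, and Gm50163, tail to tail with the RNA-binding protein gene Matr3, had an MU peak with 6.23. Neither was above input at the gene level, with log2 ratios of −0.83 in WT and −0.81 in MU for Gm42984 and −0.40 in WT and −0.33 in MU for Gm50163. On the opposite strand, 41 WT peaks fell within 15 members and 39 MU peaks within 13, and Brip1os held 19 and 20 of these. Over the span of Gm50163 lay 3 WT and 3 MU peaks on the other strand, where it overlaps Matr3 and another coding gene. These peaks were not assigned to either gene. Matr3 had log2 ratios of 1.77 in WT and 0.95 in MU.

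Start sequences from RefSeq were matched for 76 members, and for 63 the RefSeq start lay within 1 kb of that in the tables. Lin28 proteins are known to bind GGAG in let-7 precursors, so the letters GGAG, and AAGNNG as a second form, were searched on the transcript's own strand alone. A stretch AAGGAG counts for both. GGAG stood in the first 50 transcribed bases of 36.5% of the 63 members, against 34.4% of 32544 RefSeq windows, and AAGNNG in 22.2% against 22.3%. Over the whole 300 bases GGAG was in 92.1% against 83.7% and AAGNNG in 69.8% against 74.6%. The members' windows held a median of 26 CG dinucleotides, against 7 in all windows. The printed starts of Gm26782, Airn and D330050I16Rik hold no GGAG in their capitals. These stretches differ in length, with 50, 9 and 42 bases, so nothing is read from the absence. The capitals of Gm26782 end in AAGCGG, a form of AAGNNG, and those of Airn and D330050I16Rik hold none.

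Gm35853, which contains the keratin gene Krt80, was the member that holds a RefSeq microRNA on its own strand, and its mature forms are shown because Lin28b is known for acting on microRNA precursors. The seed, bases 2 to 8, is in capitals (RefSeq, GRCm38.p6, chr15:101369364-101369387 and chr15:101369401-101369421, plus strand):
mmu-miR-1941-5p: aGGGAGAUgcugguacagaggcuu
mmu-miR-1941-3p: cAUCUUAGcaguaucucccau
The seeds of the 2 arms differ. Gm35853 had 0.284 in the WT IP and 0.538 in the WT input, and 0.0957 in the MU IP and 0.625 in the MU input, and no peak on its strand. The libraries were of long RNA, so these values describe the host and not the mature microRNA.

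At the minimum that chose the members, Apol7d (lower input 0.501), Gm12932 (0.503) and C330011M18Rik (0.521) lay just inside. Their log2 ratios were 0.55, −0.27 and −0.47 in WT and −0.21, −3.48 and −1.67 in MU. Just outside lay Ccdc142os (0.4999), 4833413G10Rik (0.4996) and Frmd8os (0.4992), with −0.29, 0.42 and −0.06 in WT. In MU they had −1.46 for Ccdc142os and 1.94 for 4833413G10Rik, and Frmd8os was listed at 0 in the MU IP.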

How the data were processed

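The libraries were 4 RNA immunoprecipitation or input libraries, 1 per group, made with a stranded mRNA kit, per the labels' protocols. MACS2 2.2.7.1, bedtools, HOMER 4.11.1 and HISAT2 2.1.0 are named in the submitters' processing notes, with mm10 and GRCm38 as builds. The authors deposited 1 gene table per construct, normalized separately. Each gives a level per gene and library with no unit in the header; the deposited levels were read as FPKM. In processed pseudogenes with the IP at 0, evidence per level behind the authors' p-value followed span (Spearman rho 0.96 in WT and 0.97 in MU), and column sums lay between 207301 and 321238. Log2 of (IP + 0.01) over (input + 0.01) matched the deposited log2 ratio to within 1.57e-09. The authors' q-value served in an alternative alone. Per the file headers and layout, the deposited peak lists give a score, a fold at the summit and −log10 p and q values, with each strand called apart; the deposited fold and −log10 q-value are the authors' own. The quantifier, strand use in counting and the control of the peak calling are not given in the sources used here. Read totals are not given, so depth is unknown and levels carry no counting interval.

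Tables were joined by gene identifier with Python 3.11.15 and pandas 2.3.3. A peak belonged to a gene whose span held its summit on the same strand; peaks overlapping by 1 base were shared. Spans and partners come from the tables, starts and microRNAs from RefSeq. The functions were tested on simulated data. The members and lists were chosen with earlier results of these data known. Genes were named by rank of ratio, difference, input level and peak strength, with every member peaked in both lists and those beside the input minimum; members grouped by their partners and other examples were chosen after their values were seen. The alternatives were other pseudocounts, input minima, centring, folds, partner rules and peak rules.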

Additional observations from a re-analysis of the deposited data

Results flagged for a closer look

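For 3 antisense transcripts the IP was at least 2-fold on one side of its input with wild-type Lin28b and at least 2-fold on the other side with the mutant. The WT minus MU difference of the log2 ratios was 3.15 for Gm13205, 2.35 for 3110045C21Rik and −2.61 for Gm13966. 3110045C21Rik was at the edge of the call in WT (2.002-fold). The share of all genes called on opposite sides was not computed, so nothing is read from the count. Each rests on 1 library a group, and the difference was not tested.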

How the results depend on the processing

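Every median kept its sign under the alternatives run. With a pseudocount of 0.1 the median log2 ratio of members was −0.64 in WT and −1.49 in MU, their difference 0.57, and the median of member minus partner −0.30 in WT and −0.68 in MU. With a pseudocount of 1, near the level of the members, these were −0.34, −0.60, 0.28, −0.011 and −0.12, with 1 member higher and 17 lower in the WT IP and 34 lower in the MU IP. With both inputs at 1 or above (77 members, 58 pairs) they were −0.86, −1.64, 0.56, −0.27 and −0.46, with 37 lower in WT and 50 in MU. With no minimum (392 members, 326 pairs) they were −0.74, −1.32, 0.54, −0.39 and −0.88, with 28 higher and 161 lower in WT, 18 higher and 239 lower in MU, and 11 members with an MU peak. Centred on the median of all genes (−0.28 in WT and −0.59 in MU), the members had −0.44 and −1.12, a difference of 0.37, and 6 higher in WT. At 3-fold, 0 were higher in either IP and 30 were lower in WT. With the most abundant partner the pair median in WT was −0.39. With the authors' peak fold of 4 or more, 4 members had an MU peak. Without the members listed at 0 in an IP (128 members, 105 pairs), an alternative chosen after seeing the data, the values were −0.64, −1.44, 0.63, −0.26 and −0.78. The counts move with the number of members in the input settings, and elsewhere the cause was not tested. Shares over all genes were not computed for the alternatives, so nothing is read from their counts. In all 44 values moved and 24 did not, and no median changed its sign. A median was taken as moved if its rounded value changed, and a count only past a wider margin. No paired analysis was possible because each group holds 1 library. Depth is unknown, most members lie near the lowest levels of the tables, and no exon models were used.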
